A study of Mus musculus with 12 samples.

Results

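Hepatic mRNA of 9 lipid droplet genes was examined among the 21705 genes of the deposited liver RNA-seq table: Fitm1, Fitm2, Cidea, Cideb, Cidec, Plin1, Plin2, Plin5 and Pnpla2. Each was taken by its symbol and Entrez identifier, and all 9 were found. Fitm1 was picked because it fell in these LNA29 livers, so its values are given as a description with no test. The other 8 genes were chosen by their known roles, with earlier results of the same livers in view.

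The livers came from female C57BL/6J mice of 10 to 12 weeks, all fasted overnight before collection. The saline group had 6 mice injected in the tail vein with saline. The LNA29 group had 6 mice injected in the tail vein with locked nucleic acid inhibitors of the microRNA miR-29, 20 mg/kg of LNA29a and 20 mg/kg of LNA29bc. Livers were taken 7 days after dosing. The comparison asks how hepatic mRNA differs when miR-29 is inhibited. The controls received saline and no oligonucleotide, so miR-29 inhibition and the presence of an LNA cannot be told apart here. The libraries hold whole liver mRNA, in which fewer cells of a type and less RNA per cell cannot be told apart.

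A lipid droplet is a core of triglyceride and cholesteryl ester inside a monolayer of phospholipid, and it buds from the endoplasmic reticulum. Fat storage-inducing transmembrane proteins sit in that membrane and promote droplet formation, perilipins coat the droplet and control access of lipases, CIDE proteins enlarge droplets or pass lipid to lipoproteins, and Pnpla2 (adipose triglyceride lipase) takes the first fatty acid from a triglyceride. In a fasted liver, fatty acids arriving from adipose tissue are stored in such droplets and released from them for oxidation.

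LNA29 was designed against the 3 mature miR-29 sequences, which are shown because the same 7 bases in all of them decide where a match is looked for. They are taken from RefSeq on GRCm38.p6, and the capitals mark the seed, bases 2 to 8.
miR-29a: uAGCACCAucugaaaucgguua
miR-29b: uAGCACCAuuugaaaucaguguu
miR-29c: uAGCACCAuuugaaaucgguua
The complement of this seed in mRNA is TGGTGCT. It occurred in the longest annotated 3′ UTR of 0 of the 9 genes (GENCODE M21, GRCm38), against 2751 of 21010 genes (13.1%) with an annotated 3′ UTR. The Fitm1 transcript has a 3′ UTR of 27 bases, so there is little room for a match in it, while that of Fitm2 has 3124 bases. The lack of these letters in a 3′ UTR says nothing of other kinds of site.

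Among 32 other lipid droplet genes, the match was present in 3. It is shown for these genes, with 10 bases to each side and the match in capitals, because they are the droplet genes that miR-29 could pair with by this rule.
Abhd5, first match (chr9:122380496-122380502, plus strand): ccagcttacaTGGTGCTtaaactggat
Abhd5, second match (chr9:122380543-122380549, plus strand): taaaactatgTGGTGCTgttacgtctc
Soat1 (chr1:156428092-156428098, minus strand): ctggaatttcTGGTGCTgtttgtttct
Pcyt1a (chr16:32472833-32472839, plus strand): gagcaggagcTGGTGCTtgcagtcccc
All 4 matches lie in the 3′ UTR of the last exon, and none is followed by an A. Abhd5, the co-activator of Pnpla2, differed by −0.06 ± 0.19 (SE) on the log2 scale, Soat1, which makes cholesteryl ester, by 0.44 ± 0.42, and Pcyt1a, which controls phosphatidylcholine synthesis, by −0.28 ± 0.32. The adjusted p from limma was 0.975 for Abhd5, 0.868 for Soat1 and 0.890 for Pcyt1a. No difference was shown for the genes with a match at this depth.

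Sequencing depth lay between 7696080 and 19062438 reads on genes per liver, with a median of 12011980 in saline and 9123458 in LNA29 livers. A deposited value is an estimated read number scaled within its liver, such that 1 read was worth between 9.80 and 24.4 and a gene without reads was set to 1. Saline replicate 49 stood apart, with albumin at 35.7% of its reads, against 43.6% to 46.9% in the other saline livers. The markers fitted a liver: the summed hepatocyte markers (Alb, Apoa1, Ttr, Serpina1c and Tat) took 39.9% to 52.5% of the reads in saline and 50.1% to 52.5% in LNA29 livers. Of 12486 genes whose mean over the livers reached 10, limma called 20 (0.16%) at an adjusted p under 0.05, with 9 of them higher in LNA29 livers. An unadjusted p under 0.05 was reached by 988 (7.91%), and for 123 genes (0.985%) the groups did not overlap. The median log2 difference over all tested genes was −0.09. This baseline moved with the scaling, to −0.05 with the livers set to a common median and −0.03 with TMM scaling.

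Fitm1 (Entrez 68680, chr14:55575617-55576954 on the plus strand, 2 exons, GRCm38) encodes the fat storage-inducing transmembrane protein known mainly from skeletal muscle and heart. Its values in saline replicates 43, 45, 47, 49, 51 and 53 were 765.6, 746.0, 842.1, 530, 414.1 and 421.6. In LNA29 replicates 44, 46, 48, 50, 52 and 54 they were 325, 195.1, 169.8, 160.7, 132.1 and 315.1. Every LNA29 liver lay below every saline liver, the nearest pair being LNA29 replicate 44 and saline replicate 51. The mean was 620 ± 188 (SD, n = 6) in saline and 216 ± 82.9 (SD, n = 6) in LNA29 livers, a ratio of 0.349. The log2 difference, LNA29 minus saline, was −1.54 ± 0.28 (SE), and 30 of the 8990 tested genes with a mean of at least 100 had a larger fall. Because Fitm1 was picked from this contrast, neither the fall nor the lack of overlap supports anything further.

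**Figure D1:**
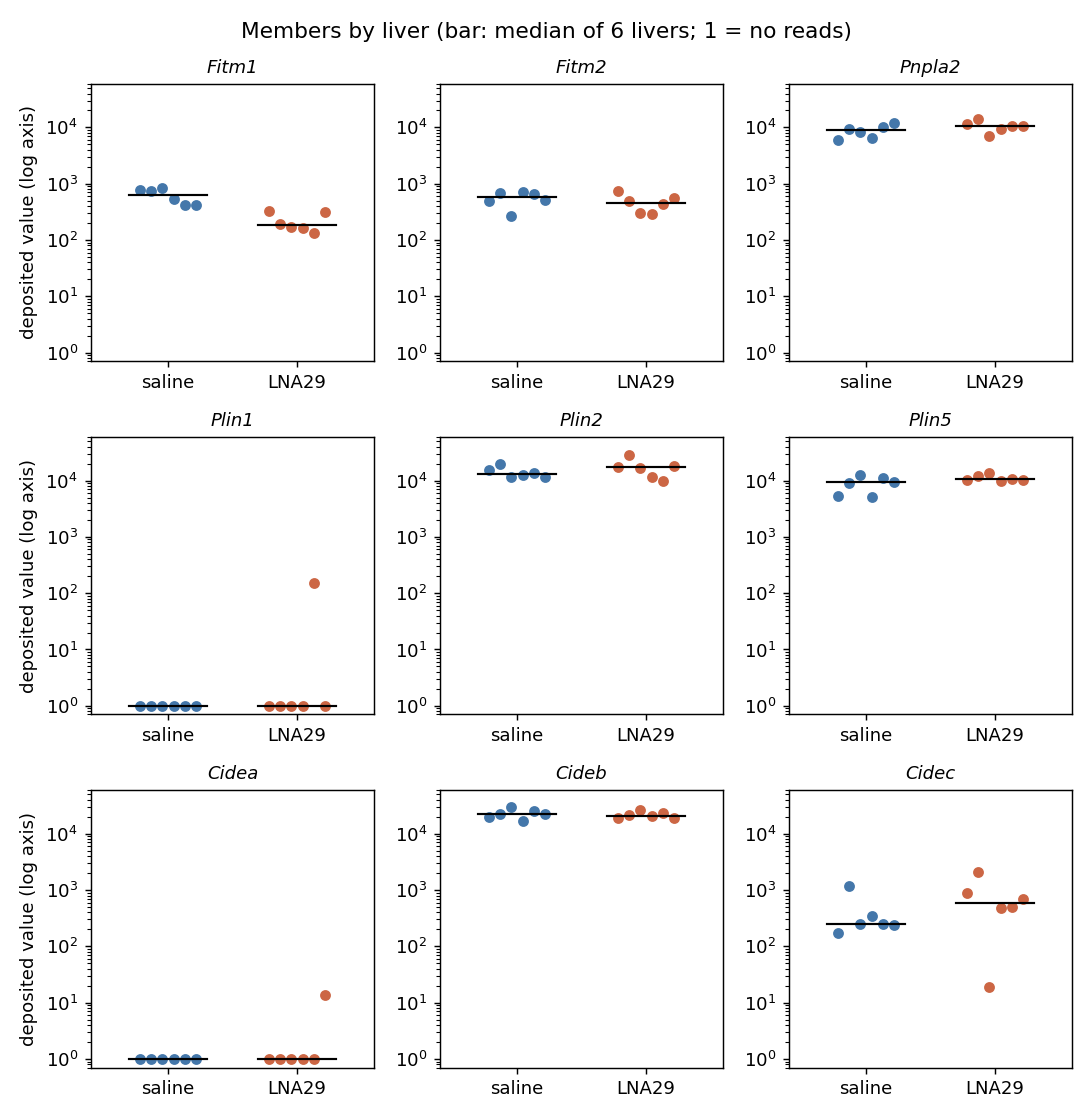
Deposited value of each of the 9 genes (vertical log axis, where 1 stands for no reads) in 6 saline and 6 LNA29 livers, with 1 point a liver and a bar at the median. Fitm1 is the gene whose groups do not overlap, Plin1 and Cidea have reads in 1 liver each, and Cidec spreads from 18.9 to 2073 in LNA29 livers.

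Fitm1 rested on few reads. Saline livers held 41 to 53 Fitm1 reads each and 281 in all, and LNA29 livers 7 to 26 each and 82 in all. The exact Poisson 95% interval, which covers counting error only, was 29.4 to 55.6 for the lowest saline liver with 41 reads and 16.98 to 38.1 for the highest LNA29 liver with 26. These intervals overlapped. They hold unscaled reads, with 1 read worth 10.1 in that saline liver and 12.5 in that LNA29 liver. An overlap of intervals is not a test, so whether counting error covers the gap between these livers was not tested. Within LNA29, the livers with the most Fitm1 reads, replicates 44 and 54, were also the most deeply sequenced of their group. Within saline, Fitm1 reads were nearly alike from 8217210 to 19062438 reads on genes. The scaled value was lowest in replicates 51 and 53, the most deeply sequenced, where 1 read was worth 10.1 and 9.80. Replicate 49, the shallowest saline library, came next with a value of 530, and 1 read was worth 10 there. Divided by the total reads on genes (CPM), Fitm1 in saline livers lay between 2.26 and 6.45 CPM and in LNA29 livers between 0.758 and 1.85. The 6.45 CPM belonged to saline replicate 49, the liver set apart by its albumin share, and saline replicate 43 came next at 4.87 CPM. The TMM factor, by which CPM is divided under TMM scaling, was 2.18 in saline replicate 49 and 0.758 to 1.09 in the others. Its CPM are thus high for many genes. On the CPM scale the groups also did not overlap, with saline replicate 53 and LNA29 replicate 54 nearest.

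**Figure D2:**
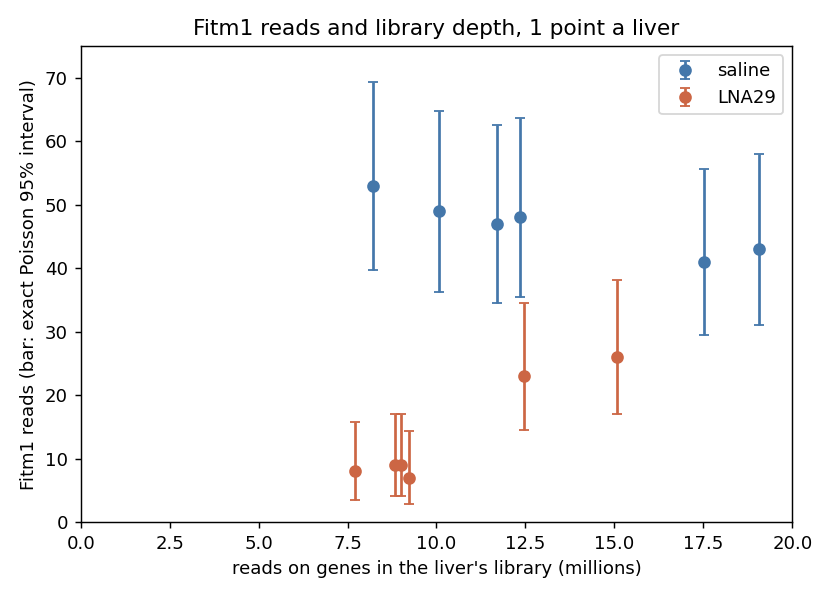
Fitm1 reads (vertical axis, with exact Poisson 95% intervals) against the reads on genes of each library (horizontal axis), 1 point a liver, saline and LNA29. The 6 saline livers lie between 41 and 53 reads at every depth, and the 4 shallowest LNA29 libraries lie between 7 and 9.

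Markers of skeletal muscle, where Fitm1 is abundant, were close to absent. Their sum (Ckm, Acta1, Myh4, Myh1, Mylpf, Tnnt3 and Pvalb) ran from 0 to 0.405 CPM in saline livers and from 0 to 0.130 in LNA29 livers. The exact permutation p for this sum was 0.119. It was below Fitm1 alone in every liver, and 2 of the 7 markers had no reads in any liver. A part of muscle in the Fitm1 values was not tested. A non-coding transcript on the opposite strand, Gm15932, shares 109 of the 971 exonic bases of Fitm1, and the sources used here give no strand for the counting, so reads from both cannot be told apart in that stretch.

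Of the 10 other protein-coding genes within 50 kb of Fitm1 in GRCm38, 8 were in the table under these symbols and were tested. In 7 of the 8 the log2 difference was below 0, against 61.4% of all tested genes. The median was −0.26 against −0.09 over all, and the range was from −0.39 to 1.14. The 1.14 ± 0.76 (SE) was Rec8, a gene near the floor. Its mean value was 17.3 in saline and 35.0 in LNA29 livers, where 1 read was worth between 9.80 and 24.4. The adjusted p was under 0.05 for 0 of the 8, and an unadjusted limma p under 0.05 was reached by 1, Dcaf11, with −0.36 ± 0.11 (SE) and an adjusted p of 0.306, where the shares over all tested genes were 0.16% and 7.91%. Dcaf11 and Rec8 were named after their values were seen.

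Fitm2 (Entrez 228859, chr2:163466379-163472629 on the minus strand), the more widely expressed partner of Fitm1, ranged from 263 to 700 with a median of 578 in saline livers and from 286 to 738 with a median of 461 in LNA29 livers. The groups overlapped almost wholly, and 1 LNA29 liver lay above all saline livers. The log2 difference was −0.23 ± 0.28 (SE), with a 95% interval from −0.82 to 0.35, a limma adjusted p of 0.896 and a two-sided exact permutation p of 0.448. The difference between the changes of Fitm1 and Fitm2 was not tested, because Fitm1 was chosen by its change. Per kilobase of transcript, Fitm1 exceeded Fitm2 in 6 of 6 saline livers, by a ratio of 2.62 to 13.1 with a median of 3.92. In LNA29 livers it exceeded Fitm2 in 6 of 6 as well, by a ratio of 1.24 to 2.30.

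Perilipins showed no difference between groups that passed the test. Plin2 (Entrez 11520, chr4:86648386-86670060, minus strand), the perilipin that coats most hepatocyte droplets and whose level follows stored lipid, ranged from 11490.2 to 19698 with a median of 13159 in saline livers. In LNA29 livers it ranged from 10019 to 28585 with a median of 17111. The lowest and the highest of all 12 livers, replicates 52 and 46, both belonged to LNA29. Its log2 difference was 0.21 ± 0.22 (SE), 95% interval −0.24 to 0.67, limma adjusted p 0.874 and exact permutation p 0.418, and it was 0.05 without LNA29 replicate 46.

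Plin5 (Entrez 66968, chr17:56111601-56117596, minus strand), which links droplets to mitochondria in oxidative tissues, ranged from 5190 to 12439 in saline livers, with a median of 9349, and from 9661 to 13755 in LNA29 livers, with a median of 10469. All 6 LNA29 livers lay above the saline median, and only 1 lay above the highest saline liver. Saline replicates 43 and 49 were the low ones, at 5312.5 and 5190. The log2 difference was 0.40 ± 0.20 (SE), 95% interval −0.03 to 0.83, limma adjusted p 0.666 and exact permutation p 0.132.

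Plin1 (Entrez 103968, chr7:79720218-79732903, minus strand), the perilipin of adipocytes, had 8 reads in LNA29 replicate 52, a value of 150.9, and 0 reads in the other 11 livers. A count of 0 allows up to 3 reads, which is 0.157 to 0.390 CPM at these depths. Of the adipocyte markers, the same liver held 37 reads of Cfd, 2 of Adipoq and 3 of Retn. Fabp4 had 70 reads there against 91 in LNA29 replicate 48, and Lipe 38.9 against 51 in LNA29 replicate 44. Saline replicate 47 also had 44 reads of Cfd, 3 of Adipoq and 3 of Retn, but 0 of Plin1, and the other 10 livers had 0 or 1 read of Cfd and none of Adipoq or Retn. The sum of all 6 adipocyte markers, which include Fabp4 and Lipe that a liver also expresses, spanned 4.71 to 13.04 CPM in saline and 5.07 to 16.3 in LNA29 livers, and Lep had 0 reads throughout. Their part in the Plin1 reads was not tested. Plin1 passed the filter on low values only through that liver, and no fold is given.

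Of the CIDE genes, Cideb (Entrez 12684, chr14:55754050-55758458, minus strand), the hepatocyte member that takes part in VLDL lipidation, was the most abundant of the 9 genes. It ranged from 16684 to 30062 with a median of 22085 in saline livers and from 19093 to 26211 with a median of 21084 in LNA29 livers, so the LNA29 values lay wholly inside the saline range. Its log2 difference was −0.05 ± 0.15 (SE), 95% interval −0.37 to 0.28, limma adjusted p 0.974 and exact permutation p 0.758, and it turned to 0.02 with TMM scaling. Cideb is uncertain in its level: 1136 of its 1488 exonic bases overlap Nop9 on the opposite strand, and the recovered reads of Cideb were not whole in any of the 12 livers. Nop9, listed under the older name 2610027L16Rik, had 29.8 to 84.8 reads per liver.

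Cidec (Entrez 14311, chr6:113424634-113435760, minus strand), the CIDE protein that fuses droplets and rises with fasting and steatosis, varied most among the genes with reads in every liver. Saline values were 171.9, 1174.6, 245.6, 350, 252.5 and 235.3 in replicates 43, 45, 47, 49, 51 and 53. LNA29 values were 875, 2073.2, 18.9, 482.1, 509.4 and 684.9 in replicates 44, 46, 48, 50, 52 and 54. In 5 of 6 LNA29 livers Cidec exceeded 5 of the 6 saline livers, whereas LNA29 replicate 48 held 1 read and was the lowest of all. The coefficient of variation was 94.2% in saline and 90.1% in LNA29 livers. The log2 difference was 0.42 ± 0.79 (SE), 95% interval −1.24 to 2.09, limma adjusted p 0.941 and exact permutation p 0.725. It was 1.31 without LNA29 replicate 48 (limma adjusted p 0.331) and −0.03 without LNA29 replicate 46 (limma adjusted p 0.998). Its size thus depended on single livers. Under the alternatives other than leaving out 1 liver it lay between 0.297 and 0.825.

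Cidea (Entrez 12683), the CIDE gene of brown fat and of steatotic liver, had 1 read in LNA29 replicate 54 and 0 in the other 11 livers. It fell under the filter on low values, so it was not tested, and no difference was detectable at this depth.

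Pnpla2 (Entrez 66853, chr7:141455198-141460743, plus strand), the lipase, ranged from 5984 to 12167 with a median of 8936 in saline livers and from 7132 to 13976 with a median of 10614 in LNA29 livers. The groups overlapped, with 5 of 6 LNA29 livers above the saline median. The log2 difference was 0.29 ± 0.19 (SE), 95% interval −0.11 to 0.68, limma adjusted p 0.775 and exact permutation p 0.197.

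Apart from Fitm1, 6 of the genes had reads in every liver: Fitm2, Cideb, Cidec, Plin2, Plin5 and Pnpla2. By limma 0 of these 6 had an adjusted p under 0.05 and 0 an unadjusted p under 0.05, against 0.16% and 7.91% of all tested genes, and the groups overlapped in each of them. Plin1, with reads in 1 liver, is not counted. The unadjusted count over the genes other than Fitm1 was not 0 under every alternative. It was 1 with TMM scaling, without saline replicate 47, without saline replicate 51, and without both saline replicate 47 and LNA29 replicate 52. Without LNA29 replicate 48 it was 2. The smallest p that 6 against 6 livers allow in the exact test is 0.00216. A p above the threshold does not show that a gene was alike in both groups, and the intervals for Plin2, Plin5 and Pnpla2 still hold rises of 0.67 to 0.83 on the log2 scale.

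**Figure D3:**
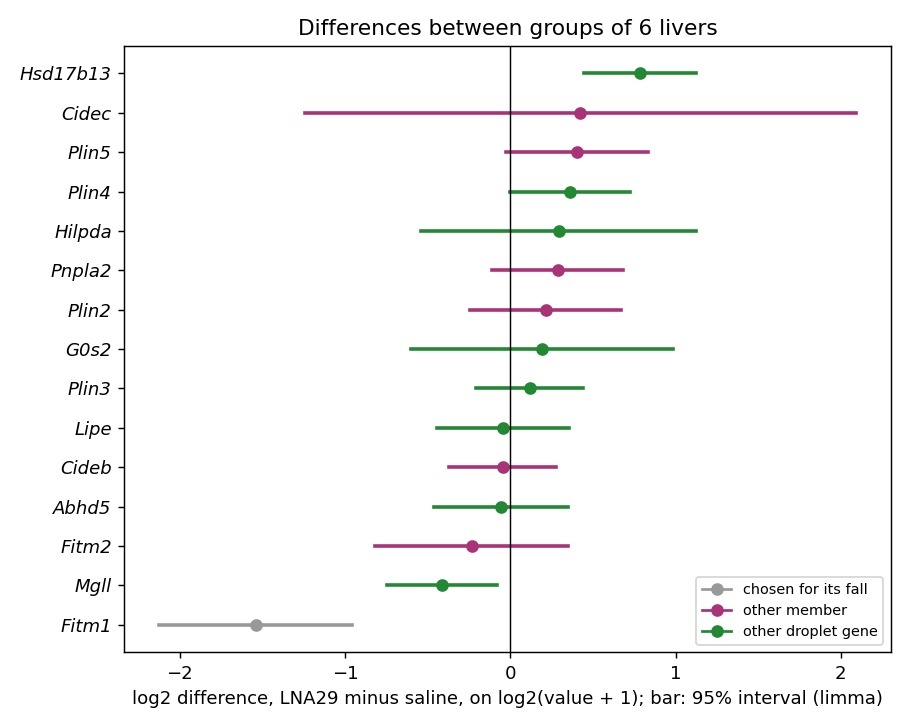
Log2 difference between LNA29 and saline livers with its 95% interval from limma (horizontal axis, log2(value + 1) scale) for 7 of the 9 genes and 8 other droplet genes, 6 livers a group. The interval of Hsd17b13 lies above 0 from 0.44 to 1.13 and that of Mgll below 0 from −0.75 to −0.08. The interval of Fitm1, in grey, also lies below 0, and this gene was chosen for its fall. The intervals of the remaining genes include 0.

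Levels per kilobase of annotated transcript (GENCODE M21 lengths, which may differ from those of the authors' annotation) gave an order with several ties. In saline livers the mean value per kilobase was 18723 ± 3839 (SD, n = 6) for Cideb, 7485 ± 1648 for Plin2, 4418 ± 1493 for Plin5, 3333 ± 891 for Pnpla2, 638 ± 193 for Fitm1, 235 ± 222 for Cidec and 138 ± 41.8 for Fitm2. Cideb was above Plin2 and Pnpla2 above Fitm1 with no overlap, whereas the ranges of the neighbours Plin2 and Plin5, Plin5 and Pnpla2, Fitm1 and Cidec, and Cidec and Fitm2 overlapped. Cidec exceeded Fitm2 in 4 of 6 saline livers, their medians per kilobase were 145 and 146, and the mean of Cidec was 146 without saline replicate 45. In LNA29 livers the level was 223 ± 85.4 per kilobase for Fitm1 and 450 ± 405 for Cidec. Fitm1 exceeded Cidec per kilobase in 6 of 6 saline livers and in 1 of 6 LNA29 livers, replicate 48 with its single Cidec read. This exchange of rank holds the fall that chose Fitm1 and is a description.

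Variation between livers of the same group was compared after removing each group's mean, which leaves out the difference that chose Fitm1. Across the 12 livers, which share library depth and scaling, Plin5 and Cideb varied together most closely (Pearson r = 0.874, 0.92 within saline and 0.755 within LNA29). Cidec and Pnpla2 followed with r = 0.623, of which 0.216 came within saline and 0.958 within LNA29, where LNA29 replicate 48 was lowest and replicate 46 highest in both genes. Fitm2 and Cideb varied in opposite directions (r = −0.655). Over all 12 livers Fitm1 gave its highest value with Plin2 (r = 0.456, 0.4 within saline and 0.496 within LNA29). Its values with 3 other genes differed in sign between the groups: −0.514 within saline and 0.77 within LNA29 for Fitm2, 0.188 and −0.757 for Cideb, and −0.513 and 0.334 for Pnpla2. These correlations are descriptions over few livers.

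**Figure D4:**
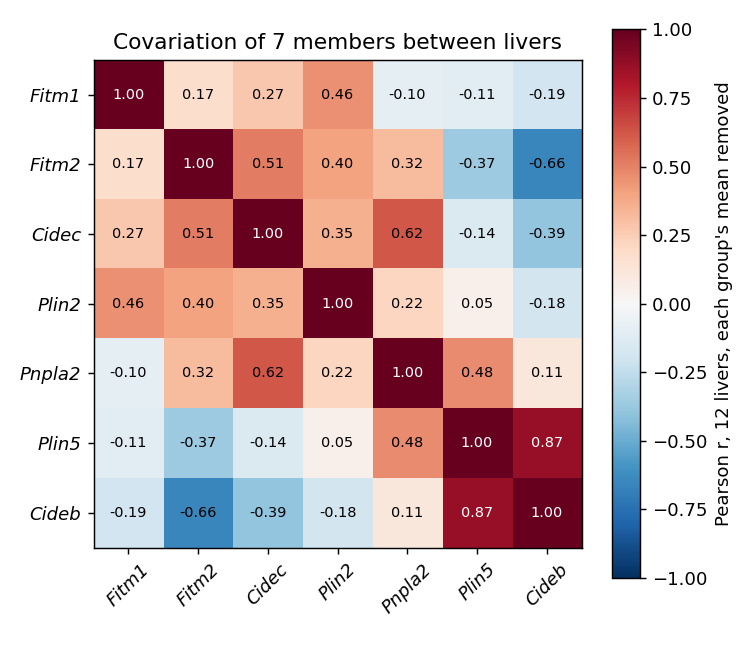
Pearson correlation between 7 of the genes over 12 livers after each group's mean of log2(value + 1) was removed, coloured from −1 to 1. Plin5 and Cideb give 0.874, Fitm2 and Cideb −0.655, and Fitm1 gives no value above 0.456.

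By the same measure, among 8983 other genes with a mean of at least 100, those most like Fitm1 were Neurl3 (r = 0.899), Ghdc (0.887), Copg2 (0.853), Sdc2 (0.826) and Clp1 (0.813). The log2 difference between groups was −0.30 for Neurl3, −0.20 for Ghdc, −0.48 for Copg2, −0.19 for Sdc2 and −0.13 for Clp1. The genes most like Cidec were Bhmt (r = 0.979), Lyrm4 (0.968) and Extl1 (0.952), and those most like Plin2 were Uqcrfs1 (0.890), Brp44l (0.865) and Meis2 (0.838). With so many genes and 12 livers, high values arise easily, and nothing is drawn from them.

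The wider droplet machinery was described over the 32 other genes, of which 30 were tested. Pnpla3 and Lpcat1 had at most 4 reads in a liver and were under the filter. By limma, 0 of the 30 had an adjusted p under 0.05, and an unadjusted p under 0.05 was reached by 1 that was higher, Hsd17b13, and 1 that was lower, Mgll, in LNA29 livers. This share is near that over all genes. The median log2 difference was −0.08, with 11 genes above and 19 below 0, against −0.09 over all tested genes.

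Hsd17b13, a liver-enriched dehydrogenase on the droplet surface, was the 1 droplet gene of 30 whose groups did not overlap, against 0.985% of all tested genes. Its values were 10593.8, 12190.5, 11701.8, 11380, 12989.9 and 12215.7 in saline replicates 43, 45, 47, 49, 51 and 53. In LNA29 replicates 44, 46, 48, 50, 52 and 54 they were 18987.5, 30097.6, 24849, 17750, 14245 and 19918. All 6 LNA29 livers lay above all 6 saline livers, and the saline livers lay close together, with a coefficient of variation of 6.93% against 26.9% in LNA29 livers. The mean was 11845 ± 821 (SD, n = 6) in saline and 20975 ± 5639 (SD, n = 6) in LNA29 livers, a ratio of 1.77, on 667 to 1519 reads per liver. The log2 difference was 0.79 ± 0.16 (SE), with an exact permutation p of 0.00216, the smallest this test can give, and a limma adjusted p of 0.0682, which missed the threshold over all genes. The adjusted p was 0.0376 with array weights and 0.0470 without LNA29 replicate 52, and no lower than 0.0588 under the other alternatives.

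**Figure D5:**
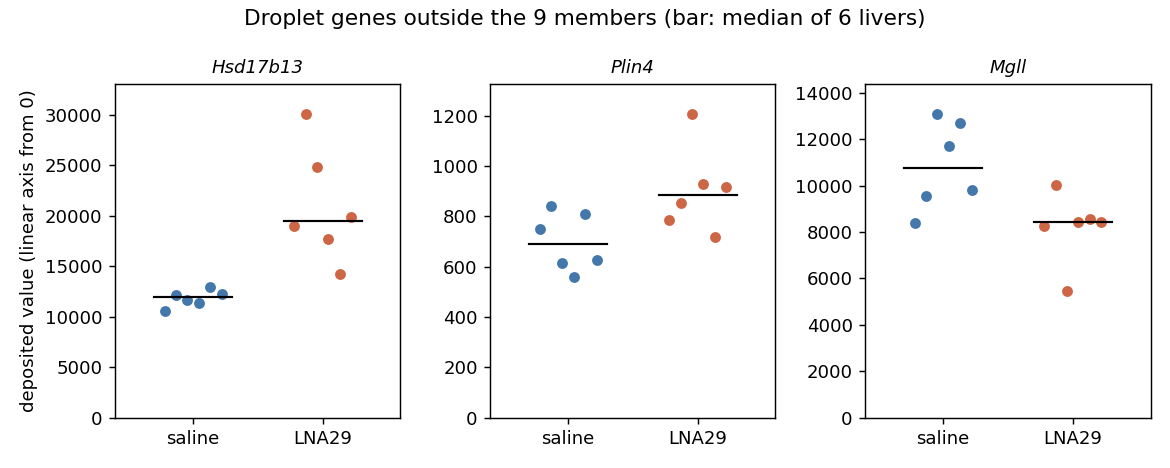
Deposited values of Hsd17b13, Plin4 and Mgll (vertical linear axes from 0) in 6 saline and 6 LNA29 livers, 1 point a liver, with a bar at the median. Hsd17b13 lies between 10593.8 and 12989.9 in saline and between 14245 and 30097.6 in LNA29 livers, while the groups overlap for Plin4 and Mgll.

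Mgll, monoacylglycerol lipase, which completes triglyceride breakdown, ranged from 8406 to 13088 with a median of 10782 in saline livers and from 5472 to 10024 with a median of 8449 in LNA29 livers. All 6 LNA29 livers lay below the saline median and 2 lay below every saline liver. The log2 difference was −0.41 ± 0.16 (SE), with a limma adjusted p of 0.485 and an exact permutation p of 0.0325. Plin4, a perilipin next to Plin5 on chromosome 17, ranged from 560 to 841 in saline and from 717 to 1208 in LNA29 livers, with 4 of 6 LNA29 livers above every saline liver. Its log2 difference was 0.36 ± 0.17 (SE), with a limma adjusted p of 0.631 and an exact permutation p of 0.0325. Neither Mgll nor Plin4 passed the test over all genes. Aqp9, of the same list and named after its values were seen, had 4 of 6 LNA29 livers below every saline liver. Its log2 difference was −0.26 ± 0.14 (SE), with a limma adjusted p of 0.688 and an exact permutation p of 0.0455. The permutation p-values were not adjusted over genes.

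The remaining lipase partners gave smaller differences. G0s2, the inhibitor of Pnpla2, differed by 0.19 ± 0.38 (SE) on the log2 scale with a range from 1570 to 8242 in saline and from 2500 to 10340 in LNA29 livers, and it turned to −0.21 with array weights. Lipe, hormone-sensitive lipase, differed by −0.04 ± 0.19, turning to 0.02 with TMM scaling, and Abhd5 turned from −0.06 to 0.01 with that scaling. Hilpda, another inhibitor of Pnpla2, differed by 0.29 ± 0.39 on 4 to 17 reads per liver, and Plin3, a perilipin found on small droplets and in the cytosol, by 0.12 ± 0.15. The adjusted p from limma was 0.945 for G0s2, 0.979 for Lipe, 0.918 for Hilpda and 0.913 for Plin3.

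Lists of genes that regulate or accompany droplet proteins were read beside them, against shares over all tested genes of 0.16% for an adjusted and 7.91% for an unadjusted p under 0.05. Of 14 targets and effectors of PPAR-alpha in fasting, 7 were above and 7 below 0, with a median log2 difference of 0.02 against −0.09 over all tested genes. By limma 0 had an adjusted p under 0.05, and an unadjusted p under 0.05 was reached by Fgf21, a fasting hormone, with 1.06 ± 0.38 (SE), and by Vnn1, a pantetheinase, with −1.01 ± 0.22. Of 7 genes of the PPAR-gamma and lipogenic programme, 2 were above and 5 below 0, with a median of −0.30. None had an adjusted p under 0.05 by limma. An unadjusted p under 0.05 was reached by Lpl, lipoprotein lipase, with 1.04 ± 0.41, Srebf1, which drives fatty acid synthesis, with −0.99 ± 0.30, and Mlxipl, the carbohydrate response factor, with −0.68 ± 0.22. For Lpl, 1 LNA29 liver at 3924.5 held 208 of the 467 reads of its group, whose median value was 828.5. The exact permutation p of Lpl was 0.0628. The adjusted p was 0.432 for Fgf21, 0.0834 for Vnn1, 0.491 for Lpl, 0.270 for Srebf1 and 0.316 for Mlxipl. These 5 genes were named after their values were seen.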

How the data were processed

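Liver mRNA was sequenced from 6 saline-treated and 6 LNA29-treated mice. Per the study's methods, the authors prepared libraries with a TruSeq polyA kit, read single ends, mapped with MapSplice2 and quantified with RSEM. The submitters' processing notes name RSEM and the build mm9, and versions are not given in the sources used here. The authors deposited 1 signal value per gene and liver, scaled so that the upper quartile of genes with reads is about 1000, with 1 for no reads. The deposited group means, fold changes and p-values of the authors were not used, and 3 columns of values that carry no name were left out. Reads were recovered by dividing by the worth of 1 read, and 92.2% to 93.8% of values per liver were whole within 0.02.

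The values were tested as log2(value + 1) with limma 3.58.1 (R 4.3.3, trend) over 12486 genes whose mean over the 12 livers reached 10, p-values were adjusted by Benjamini-Hochberg, and 0.05 was the threshold. Single genes were also given a two-sided exact permutation test over 924 divisions. No label ties a liver to a litter or day. The test was also run on simulated data, with the same spread set for every gene. Gene positions, lengths and 3′ UTRs came from GENCODE M21 (GRCm38), not the build of the files. The genes and lists were chosen with earlier results of these data known. Named were the 9 genes, droplet genes with an unadjusted p under 0.05, 8 droplet genes chosen by role, and the genes most like Fitm1 (5), Cidec (3) and Plin2 (3). Count tests were planned as alternatives and not run, because too few values were whole.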

Additional observations from a re-analysis of the deposited data

Results flagged for a closer look

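Each group of 6 livers was examined in the named genes for 1 liver far from the rest (Dixon's test at 95% on log2(value + 1)). In the 15 genes with reads in every liver, 3 of 30 groups had such a liver, where chance gives about 1 in 20.

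Cidec in LNA29 replicate 48 was 18.87, against 482.1 to 2073 in the other LNA29 livers. Cidec in saline replicate 45 was 1175, against 171.9 to 350 in the other saline livers. Mgll in LNA29 replicate 48 was 5472, the lowest of its group, against 8262 and above in the others.

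Plin1 in LNA29 replicate 52 was 150.9 and Cidea in LNA29 replicate 54 was 13.7, where all other livers of the group were at 1, the value set for no reads. The Cidea value is 1 read. With all other livers tied, any read stands apart, so these values are outside the count above.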

How the results depend on the processing

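The count of genes with an adjusted p under 0.05 by limma was 0 for Fitm2, Cideb, Cidec, Plin2, Plin5 and Pnpla2 under every alternative run (pseudocounts of 0.1 and 10, no filter, a mean of at least 100, a common median, TMM scaling of recovered reads, array weights, each liver left out in turn). Plin1 was not tested with a mean of at least 100 or in any fit that left out LNA29 replicate 52, and Cidea only without the filter. For the 30 tested droplet genes it was 1 with array weights and 0 to 1 with a liver left out, Hsd17b13 each time. Over all genes the count of 20 became 5 without the filter, 10 with a common median, 58 with array weights and 1 to 29 with a liver left out. It was 1 without saline replicate 43, LNA29 replicate 50 or LNA29 replicate 54, 3 without saline replicate 51, 7 without saline replicate 53, 9 without LNA29 replicate 46, 10 without LNA29 replicate 52 and 11 without saline replicate 47. Without both livers with adipocyte reads (saline replicate 47 and LNA29 replicate 52), an alternative chosen after seeing the data, it was 6. The cause was not tested.

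The log2 difference of Fitm1 lay between −1.67 and −1.42 with a liver left out and between −1.54 and −1.32 under the others. Hsd17b13 lay between 0.67 and 0.89 throughout, with an adjusted p of 0.0376 to 0.195. Directions turned for Lipe (0.0016 with a common median, 0.020 with TMM), Cideb (0.019 with TMM, 0.014 without both livers with adipocyte reads), Abhd5 (0.0080 with TMM, 0.051 with array weights, 0.053 without both livers) and G0s2 (−0.21 with array weights). With a liver left out, Cideb ranged from −0.13 to 0.041, Abhd5 from −0.16 to 0.019, Lipe from −0.13 to 0.020, G0s2 from −0.13 to 0.41 and Cidec from −0.033 to 1.31. The livers whose omission turned a direction were saline replicate 47 (Cideb, Abhd5 and Lipe), saline replicate 51 and LNA29 replicate 48 (Lipe), saline replicate 49 (G0s2) and LNA29 replicate 46 (Cidec). Fitm2 ranged from −0.43 (without saline replicate 47) to −0.11 (without LNA29 replicate 50), Plin2 from 0.05 (without LNA29 replicate 46) to 0.35 (without LNA29 replicate 52), Plin5 from 0.27 to 0.52 and Pnpla2 from 0.18 to 0.39. edgeR and DESeq2 were not run, since 92.2% to 93.8% of the values per liver came out whole and not nearly all. No paired analysis was possible because the groups share no replicate numbers. Genes with few reads, Fitm1 among them, are limited by counting.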
